A study of Caenorhabditis elegans with 6 samples.

Results

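The genes described here are the insulin-like peptide genes of *Caenorhabditis elegans* named *ins-1* to *ins-39*, taken by their consecutive WormBase gene numbers. No measured value entered that rule, but the set was chosen with earlier results of these data known. Of these 39 genes, 22 had a value among the 17397 genes of the deposited table, and the other 17 were not analysed here. The 22 were *ins-1* to *ins-7*, *ins-11*, *ins-17*, *ins-18*, *ins-21* to *ins-24*, *ins-26*, *ins-30* to *ins-35* and *ins-37*. For the 5 of them that the study's own tables name, the name and the number matched.

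The study asked how reduced mRNA decapping changes gene expression in ageing worms. It used 6 Affymetrix *C. elegans* Genome Arrays, 3 of wild-type (wt) N2 worms and 3 of *dcap-1(rf)* worms, which carry the reduction-of-function allele tm3163 of *dcap-1*, the gene of the activating cofactor of the decapping enzyme. Each array held total RNA of whole worms from 1 population of 200 to 300 animals, harvested independently on day 9 of adulthood. Both strains were kept at 20 °C on killed OP50 bacteria with 10 µg/mL FUDR, a drug that stops progeny production, so every group here is FUDR-treated. The mutant keeps part of its decapping activity and carries the allele in all tissues, and a whole-worm measurement cannot tell a change in RNA per cell from a change in the number of cells of a type. In the mutant arrays *dcap-1* itself was lower, at 4.50, 4.52 and 4.65 against 5.44, 5.30 and 5.26 in wt (log2 fold change -0.77, SE 0.08, limma adjusted p = 0.00469).

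Insulin-like peptides are small secreted proteins, made mainly in neurons and intestine, that bind the insulin/IGF receptor DAF-2. Agonists activate DAF-2 and its PI3 kinase and AKT cascade, which keeps the FOXO factor DAF-16 out of the nucleus, whereas antagonists oppose that signal. The pathway sets larval arrest as dauer, stress resistance and lifespan in the worm. The values are log2 expression values that the authors made by robust multi-array averaging (RMA), with 1 value per gene and array, so a difference of 1 is a 2-fold change. They serve to compare the same gene between strains and not one gene with another.

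In aged *dcap-1(rf)* worms, *ins-7* rose 2.62-fold, *ins-37* rose 1.38-fold and *ins-22* was 1.87-fold lower than in wt. These 3 were the members with a limma adjusted p under 0.05, among the 16 that passed a filter on low averages. They made up 18.8% of the 16, against 1.62% of all 13047 genes tested, where 211 genes were called. The count of 3 members fell to 1, *ins-7*, in 5 of the 6 fits with 1 array left out and with replicate number as a block. It fell to 2 without wt replicate 2. The count over all genes rose from 211 to 246 with the block. With 1 array left out, that count ran from 84, without wt replicate 2, to 306, without *dcap-1(rf)* replicate 3. It was below 211 in every such fit but the last. In the table as a whole 1.46% of the genes tested were called higher and 0.161% lower, against 2 and 1 of the 16 members. Without the filter the same 3 members were called, of 22, against 1.2% of all genes. At an unadjusted p under 0.05 there were 5 of the 16, against 13.8%. *ins-11* was also higher and *ins-33* also lower on every mutant array than on every wt array, but neither passed the test. No other member passed the test. Over the 22 genes the median log2 fold change was -0.044, against -0.024 over all genes of the table, with 10 members higher and 12 lower. The median size of change without its sign was 0.12 among the 22 and 0.09 over the table. The share called rests on 3 genes, and *ins-11*, *ins-26* and *ins-37* have wt means below the average of 1.33 at which genes were removed, so they passed the filter through their mutant arrays.

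**Figure D1:**
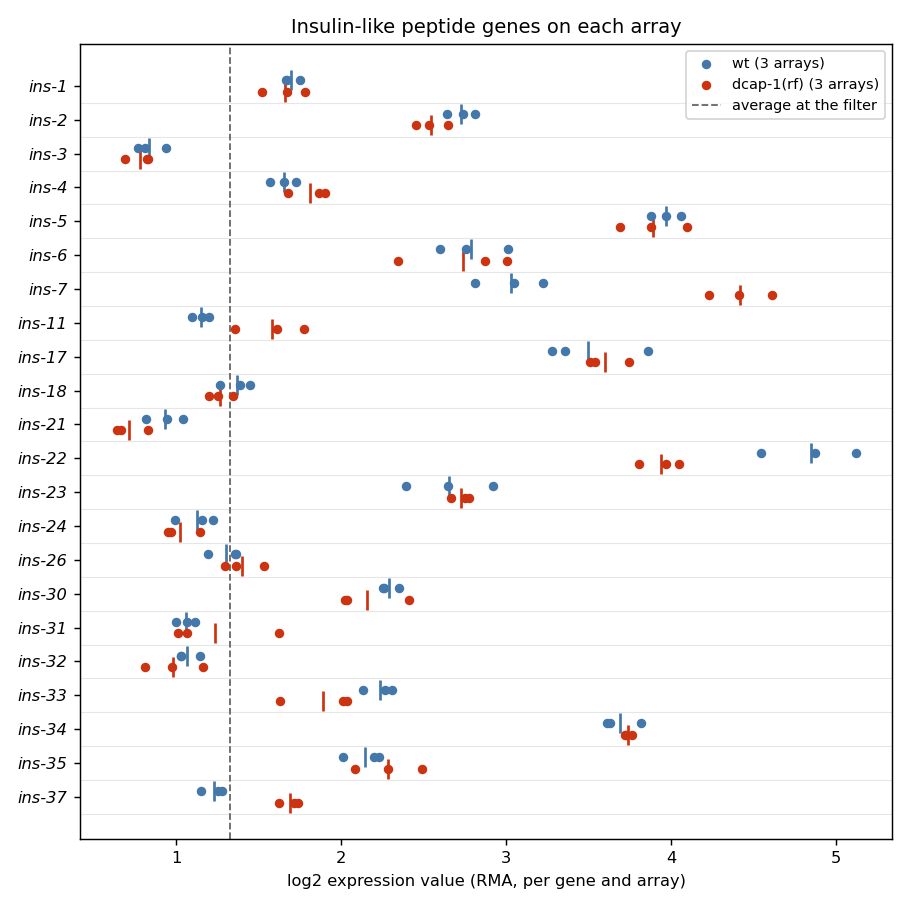
Log2 expression value (horizontal axis) of the 22 insulin-like peptide genes on each of the 3 wt and 3 *dcap-1(rf)* arrays; points are arrays, short vertical lines are group means, and the dashed line is the average of 1.33 below which genes were not tested. The arrays of the strains separate for *ins-7*, *ins-11*, *ins-22*, *ins-33* and *ins-37*, and overlap for the other 17 genes.

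*ins-7* lies on chromosome IV, 9682011 to 9682845 in WBcel235, and encodes an agonist of DAF-2 whose own gene is repressed by DAF-16. Its values were 2.81, 3.22 and 3.05 on the wt arrays and 4.23, 4.61 and 4.41 on the *dcap-1(rf)* arrays. All mutant arrays were above all wt arrays, by more than the spread within either strain. The mean rose from 3.03 ± 0.21 (SD, n = 3) to 4.42 ± 0.19 (SD, n = 3), a log2 fold change of 1.39 (SE 0.13, 95% interval 1.08 to 1.71, limma adjusted p = 0.00288). By size of increase it ranked 40 of the 13047 genes tested, and it was called whichever array was left out (adjusted p from 0.0102 to 0.0233).

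Some other genes are set beside *ins-7* here, and for these a name was at hand mostly where the study called the gene or its change was positive, so their common direction is fixed by that choice and supports nothing. Of 7 intestine markers listed, 4 could be named. Among them *ifb-2*, an intestinal intermediate filament (0.74, limma adjusted p = 0.0296), and *vha-6*, a proton pump subunit of the gut (0.64, limma adjusted p = 0.0123), passed the test. The summed linear level of these 4 ran from 139 to 154 on the wt arrays and from 189 to 215 on the mutant arrays, with the direction fixed as above. The others were *elt-2*, a gut GATA factor, at 0.20 and *act-5*, a microvillar actin, at 0.25. A separation of this kind was not particular to the intestine. The same sum for the 3 named neuron markers ran from 171 to 178 in wt and from 188 to 203 in the mutant. For the 4 named muscle markers it overlapped, at 78.7 to 88.1 in wt and 77.6 to 123 in the mutant. Outside the intestine, the 1 named hypodermis marker, the cuticle collagen gene *col-19*, was at 5.08, 5.10 and 5.08 in wt and 5.63, 6.12 and 5.37 in the mutant. These arrays did not overlap, and its log2 fold change of 0.62 was not called (limma adjusted p = 0.166). Around *ins-7*, among the protein-coding genes within 10000 bases, 2 had a value that could be named. One was *msp-76*, a major sperm protein gene that starts 6170 bases from *ins-7*, which went from 2.88 ± 0.32 to 6.41 ± 0.19 (log2 fold change 3.53, limma adjusted p = 0.000218). The other, ZK1251.3, is 813 bases away and differed by 0.31 (limma adjusted p = 0.353). The part of these values in the *ins-7* result was not tested. *ins-8*, the insulin-like gene 1070 bases from *ins-7*, was not analysed here.

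*ins-22* lies on chromosome III, 10026289 to 10026686, and was the member with the largest fall. Its values were 4.87, 4.54 and 5.12 on the wt arrays and 3.97, 4.05 and 3.80 on the *dcap-1(rf)* arrays. Every mutant array was below every wt array. The mean fell from 4.84 ± 0.29 (SD, n = 3) to 3.94 ± 0.13 (SD, n = 3), a log2 fold change of -0.91 (SE 0.15, 95% interval -1.25 to -0.56, limma adjusted p = 0.0273). It ranked 15 from the lowest of the 13047 genes tested. The call is close to the threshold: with 1 array left out it was called in 1 of 6 fits, the one without wt replicate 2, and the adjusted p ran from 0.0253 to 0.141.

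*ins-21*, *ins-22* and *ins-23* lie side by side within 4946 bases of chromosome III, and their strain differences were unequal. *ins-21*, 2081 bases to one side of *ins-22*, had values of 1.04, 0.81 and 0.94 in wt and 0.83, 0.66 and 0.64 in the mutant. These overlap, and the gene was below the filter (log2 fold change -0.22, limma adjusted p without a filter = 0.368). Its 95% interval without a filter, -0.43 to -0.015, did not include 0, so a fall of *ins-21* stays possible. RMA compresses differences at such low values, so the size of this change cannot be set against that of *ins-22*. *ins-23*, 1561 bases to the other side, had values of 2.92, 2.39 and 2.64 in wt and 2.67, 2.75 and 2.77 in the mutant, which overlap as well (log2 fold change 0.08, limma adjusted p = 0.830). The difference between the neighbours can be taken within each array. *ins-22* minus *ins-23* was 1.96, 2.15 and 2.47 on the wt arrays and 1.30, 1.30 and 1.03 on the mutant arrays. The mean of this difference was lower by 0.98 on the log2 scale in the mutant, with no overlap between the strains. The mean of *ins-22* minus *ins-21* was lower by 0.68, also without overlap. For each difference the exact permutation test, two-sided, gave p = 0.1, the smallest that 3 arrays against 3 allow. The test therefore cannot decide whether the neighbours changed differently. Both differences contain the *ins-22* values, so they largely restate its fall and are not separate evidence.

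**Figure D2:**
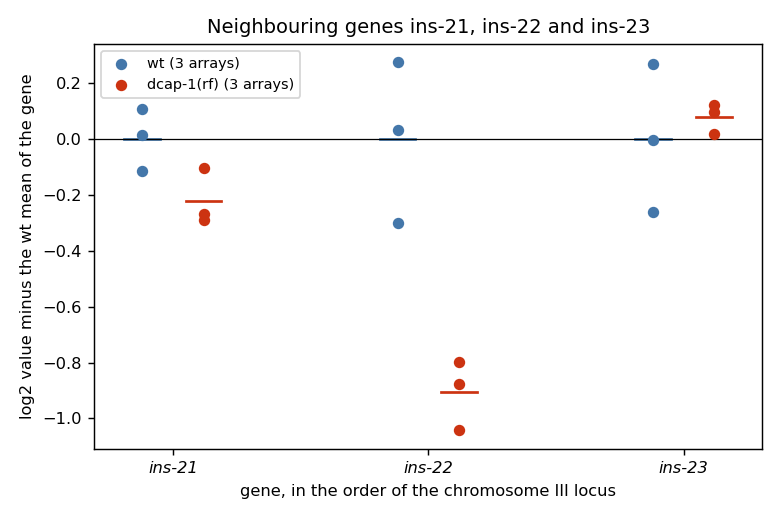
Log2 value minus the gene's own wt mean (vertical axis) for *ins-21*, *ins-22* and *ins-23* in their order on chromosome III; points are the 3 arrays of each strain and horizontal lines are group means. The mutant arrays of *ins-22* lie apart from wt, with a mean difference of -0.91. Those of *ins-21*, with a mean difference of -0.22, and of *ins-23*, with 0.08, overlap the wt arrays.

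*ins-37* lies on chromosome II, 13835101 to 13836107, and had low values in both strains. They were 1.25, 1.28 and 1.15 on the wt arrays and 1.74, 1.62 and 1.71 on the *dcap-1(rf)* arrays. The arrays of the strains did not overlap, and the spread within each was small. The mean rose from 1.23 ± 0.07 (SD, n = 3) to 1.69 ± 0.06 (SD, n = 3), a log2 fold change of 0.46 (SE 0.07, 95% interval 0.29 to 0.64, limma adjusted p = 0.0265). It was called in 0 of the 6 fits with 1 array left out, where the adjusted p ran from 0.0579 to 0.113 and the log2 fold change from 0.43 to 0.50. In RefSeq a small nuclear RNA gene, F08G2.9, and a non-coding RNA gene, F08G2.17, overlap *ins-37*, and whether probes cross-hybridise to them was not tested.

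*ins-11*, on chromosome II from 5556731 to 5557173, encodes a peptide that is induced in the intestine by pathogens and acts in learned avoidance of them. Its values were 1.20, 1.09 and 1.16 in wt and 1.36, 1.77 and 1.61 in *dcap-1(rf)*. The mutant arrays were all higher, with the first of them close to wt. The mean went from 1.15 ± 0.05 (SD, n = 3) to 1.58 ± 0.21 (SD, n = 3), which is 0.43 on the log2 scale (SE 0.11, 95% interval 0.17 to 0.69). With a limma adjusted p of 0.141 it was not called, nor was it in any other fit that tested it.

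*ins-33*, on chromosome I from 13637845 to 13639311, encodes a peptide that promotes proliferation of the larval germline. Its values were 2.31, 2.27 and 2.13 in wt and 2.01, 2.03 and 1.63 in *dcap-1(rf)*. The mutant arrays were all lower, and the third lay furthest from wt. The log2 fold change was -0.34 (SE 0.12, 95% interval -0.63 to -0.06, limma adjusted p = 0.273), and the gene was not called. Together, *ins-7*, *ins-11*, *ins-22*, *ins-33* and *ins-37* are the 5 of 22 members whose arrays did not overlap (22.7%), against 17% of all genes of the table.

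**Figure D3:**
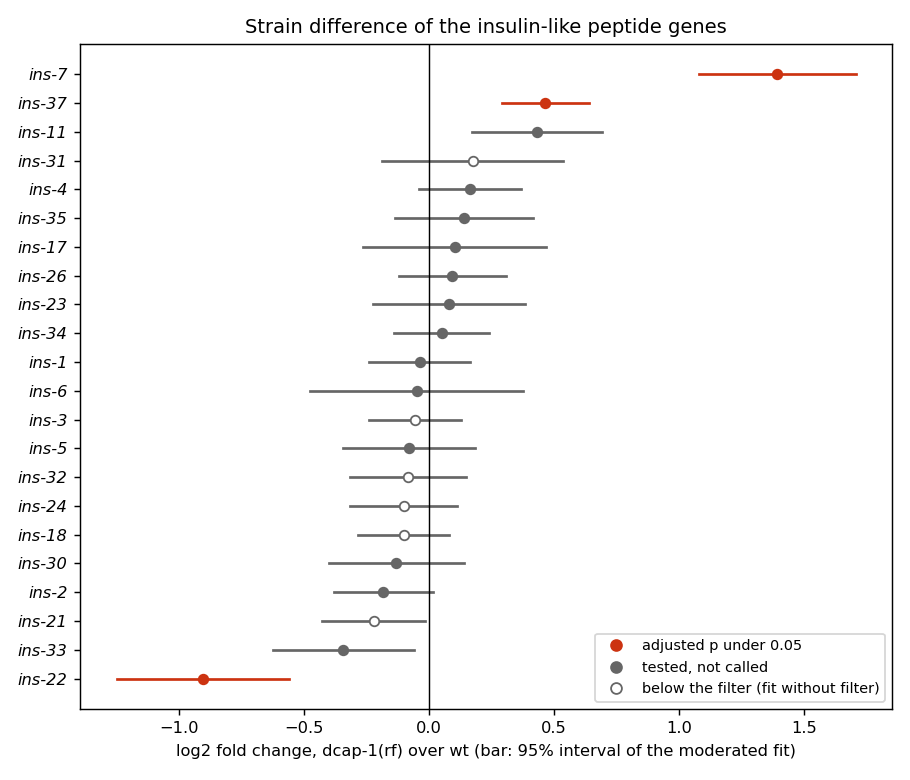
Log2 fold change of *dcap-1(rf)* over wt (horizontal axis) for the 22 insulin-like peptide genes with 95% intervals of the moderated limma fit; open points are genes below the filter, from the fit without it. Red marks the 3 called genes, *ins-7*, *ins-37* and *ins-22*, and most other intervals include 0.

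The peptides with a known part in the dauer decision showed no call beside *ins-7*. *ins-4* and *ins-6* encode agonists that act against dauer arrest or for exit from it, and their log2 fold changes were 0.16 (1.65 to 1.81, limma adjusted p = 0.465) and -0.050 (2.79 to 2.74). *ins-1* and *ins-18* encode antagonists of DAF-2. *ins-1* was at 1.75, 1.67 and 1.67 in wt and 1.78, 1.52 and 1.67 in the mutant, a log2 fold change of -0.038. The wt arrays lie within the range of the mutant arrays. *ins-18* was below the filter, with a log2 fold change of -0.10. *ins-17*, which promotes dauer arrest, went from 3.50 ± 0.32 (SD, n = 3) to 3.60 ± 0.13 (SD, n = 3), or 0.10 on the log2 scale with a 95% interval from -0.27 to 0.47.

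A run of neighbouring genes on chromosome II, from 5988524 to 6011321, holds *ins-2* to *ins-6*, which all had values, and *ins-20*, which was not analysed here. Among these 5 none was called, and their log2 fold changes lay between -0.18 and 0.16. *ins-2* had the largest negative change of the members tested after *ins-22* and *ins-33*. It was at 2.74, 2.81 and 2.64 in wt and 2.53, 2.65 and 2.45 in the mutant, with 1 mutant array inside the wt range (log2 fold change -0.18, limma adjusted p = 0.394). *ins-5* was among the members with the highest average, at 3.97, 3.88 and 4.06 in wt and 3.88, 3.69 and 4.10 in the mutant, and the strains overlapped. *ins-3*, which like *ins-33* promotes larval germline proliferation, had the lowest average of all members. It was at 0.81, 0.76 and 0.93 in wt and 0.69, 0.82 and 0.83 in the mutant, again overlapping.

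Further clusters of the family lie on chromosome I, from 14012369 to 14037777, and on chromosome II. In the first, 3 of 7 genes had values, *ins-24*, *ins-26* and *ins-30*, with log2 fold changes between -0.13 and 0.09 and no call. *ins-11* was the 1 gene with a value of the 4 between 5530677 and 5557173 on chromosome II. *ins-34* on chromosome IV and *ins-35* on chromosome V moved by 0.049 and 0.14, within the spread of their arrays.

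Over the 13 tested members that were not called, 7 were higher and 6 lower, with log2 fold changes from -0.34 to 0.43 and limma adjusted p from 0.141 to 0.924. For 11 of them the 95% interval included 0, and the exceptions were *ins-11* and *ins-33*. All 13 intervals lay between -0.63 and 0.69. These bounds do not show that the genes were alike in the strains, since a change of that size would fit inside them. The SD between arrays of a strain had a median over the 22 members of 0.0928 in wt and 0.127 in the mutant. It reached 0.316 in wt, for *ins-17*, and 0.350 in the mutant, for *ins-6*, which is more than the strain difference of either gene.

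The filter removed 6 members, *ins-3*, *ins-18*, *ins-21*, *ins-24*, *ins-31* and *ins-32*, or 27.3% of the 22 where 25% of all genes were removed by construction. Their arrays lay between 0.639 and 1.62, and their log2 fold changes without the filter between -0.22 and 0.17, with limma adjusted p from 0.368 to 0.802. *ins-32* was at 1.03, 1.14 and 1.03 in wt and 1.16, 0.81 and 0.97 in the mutant, overlapping. *ins-31* was between 0.999 and 1.11 in wt and at 1.06, 1.62 and 1.01 in the mutant, where the second array alone was high. By average, 12 of the 22 members lay below the table's median of 2.20, close to the share that all genes have by definition. Near the lower end of an array's scale RMA compresses differences.

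**Figure D4:**
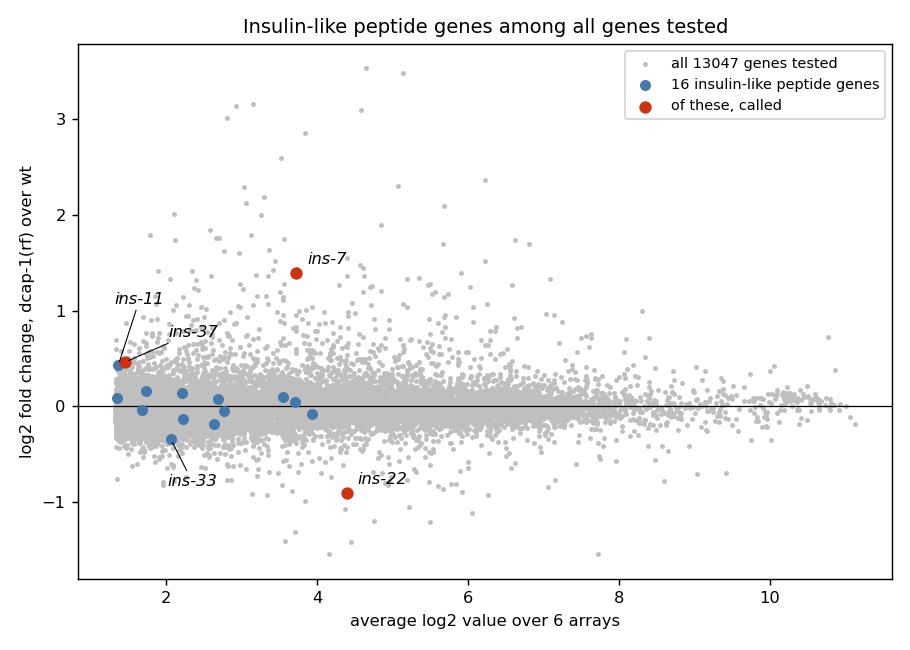
Log2 fold change of *dcap-1(rf)* over wt (vertical axis) against the average log2 value over the 6 arrays (horizontal axis) for the 13047 genes tested, with the 16 insulin-like peptide genes marked and those whose arrays do not overlap named. The members lie at averages below 4.4, and *ins-7* and *ins-22* stand apart from the others, at 1.39 and -0.91.

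Few other genes of the insulin pathway could be named here, because gene names came from the study's tables in a shortened copy, whose rows are mostly genes the study called and genes with a positive change. Of 70 pathway genes listed 11 had a name and of 45 cell type markers 13, so a count over these lists would be void and their common direction follows from how names were available. Of the core pathway, *aap-1*, the adaptor subunit of PI3 kinase, differed by 0.18 (limma adjusted p = 0.411) and *sgk-1*, a kinase downstream of it, by 0.17 (limma adjusted p = 0.604). *pqm-1*, a transcription factor that acts opposite to DAF-16, was at 5.20 ± 0.37 in wt and 5.59 ± 0.12 in the mutant, a log2 fold change of 0.39 (limma adjusted p = 0.390). *daf-28*, another agonist gene, *daf-2* and *daf-16* were not analysed here. *asna-1*, which promotes insulin secretion, differed by 0.20 (limma adjusted p = 0.389).

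Of genes that DAF-16 is known to regulate, 3 of 16 induced and 1 of 11 repressed ones listed had a name. None of these 4 was called, where 1.62% of all genes tested were, so they do not describe the output of DAF-16. The induced genes *dod-3*, at 0.41 (limma adjusted p = 0.174), and *ftn-1*, a ferritin gene at 0.42 (limma adjusted p = 0.394), had positive values, and *sip-1*, a small heat shock protein gene, was at -0.18 (limma adjusted p = 0.280). *dod-24*, a repressed target, was at 0.28 (limma adjusted p = 0.578). Of the decapping factors, *lsm-1* and *lsm-3* differed by 0.21 and 0.20 and were not called. None of the 3 named neuron markers, the 4 named muscle markers or the sperm marker *spe-11* was called. *spe-11* was the 1 named gene of 8 sperm markers listed, and its SD between the wt arrays was 0.42. It therefore does not describe sperm transcripts. *msp-76*, the sperm protein gene near *ins-7*, was called at a log2 fold change of 3.53. The study reports most spermatogenic transcripts among its called genes as higher in the mutant.

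**Figure D5:**
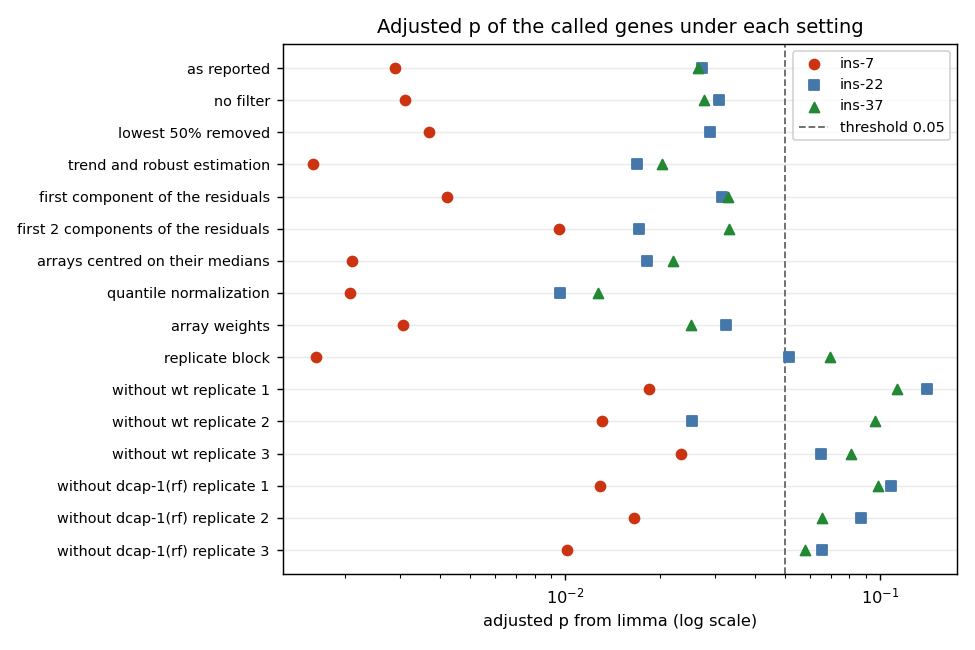
Limma adjusted p (horizontal axis, log scale) of *ins-7*, *ins-22* and *ins-37* for the fit as reported and for each alternative fit (rows); the dashed line is the threshold of 0.05. *ins-7* lies below the threshold in every fit shown, while *ins-22* and *ins-37* cross it in most fits with 1 array left out.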

How the data were processed

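Total RNA (150 ng per sample) of 6 worm populations was hybridised to Affymetrix *C. elegans* Genome Arrays, 3 per strain. The authors deposited log2 values, made by RMA with the BrainArray ENSG chip description file and WBcel235 names, for each gene on each array. Surrogate variable analysis is named too in the methods. Whether the deposited log2 values carry it is not given in the sources used here. Array medians lay between 2.18 and 2.24. There are no counts, so the number of arrays limits the precision.

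The comparison of strains used limma 3.58.1 (R 4.3.3). All 17397 genes entered a linear model holding strain alone, the 25% with the lowest average were removed, and eBayes and Benjamini-Hochberg adjustment were applied to the other 13047. Genes with an adjusted p under 0.05 were called. SEs and 95% intervals are the moderated ones, and each SD is taken over a strain's 3 arrays. Before use the fit was tested on simulated data, in which 200 genes had been changed. Differences between neighbouring genes within an array used an exact permutation test in scipy 1.17.1. Plots were drawn with matplotlib 3.10.9.

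Members and lists were chosen with earlier results of these data known. Values on every array are given for members called, members without overlap, and the members with extreme averages or changes. Positions are from RefSeq WBcel235, which located all 22 members. Sequences of the members were not used here. In 4 members, 2 arrays hold the same value to the last decimal, and the cause of this was not tested. Alternatives were no filter, removal of 50%, trended robust moderation, 1 or 2 residual components, median centring, quantile normalization, array weights, a replicate block and leaving out each array.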

Additional observations from a re-analysis of the deposited data

How the results depend on the processing

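*ins-7* and *dcap-1* were called in all 15 alternative fits, with log2 fold changes from 1.28 to 1.49 and from -0.82 to -0.72. The number of insulin-like peptide genes called stayed at 3 except with 50% of genes removed, which took *ins-37* out of the test and left 2, with the replicate block, which left 1, and with 1 array left out, 1 to 2. Over all genes the count of 211 became 328 and 411 with 1 and 2 residual components, and 84 to 306 with 1 array left out. Leaving out wt replicate 1 gave 94 genes, leaving out wt replicate 2 gave 84, and leaving out *dcap-1(rf)* replicate 2 gave 122. The strains share replicate numbers, and the sample titles do not say whether same-number populations were grown or processed together. Same-number arrays correlated at 0.05 to 0.12 in their deviations. Each of the 6 arrays correlated best with its own number. The deviations of a strain's 3 arrays sum to 0 for every gene, so these are not 6 separate matches. They cannot decide whether same-number populations shared a batch. With that replicate block, *ins-22* and *ins-37* had limma adjusted p of 0.0513 and 0.0696. Of 231 comparisons of a member with its reported value, 211 kept direction and call, 13 lost a call and 7 changed sign, over 6 members that were never called. The changes of sign were *ins-34*, at -0.012 after quantile normalization, and 5 members when 1 array was left out, each over a range that includes 0: *ins-1* from -0.10 to 0.031 and *ins-5* from -0.19 to 0.019, turned by *dcap-1(rf)* replicate 2, *ins-6* from -0.18 to 0.15, turned by wt replicate 2 (0.060) and *dcap-1(rf)* replicate 3, *ins-17* from -0.0083 to 0.28, turned by wt replicate 1, and *ins-23* from -0.053 to 0.21, turned by wt replicate 2. The cause was not tested. The number of arrays and the low values of some members limit what the test can call.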
